A study of Mus musculus with 6 samples.

Results

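Germ cell and follicle cells exchange signals through gap junction channels and through the receptor Kit and its ligand, and 5 genes of this exchange were followed across the maturation of mouse oocytes: the connexin genes Gja4, Gja1 and Gjc1, the receptor gene Kit and the ligand gene Kitl. They were taken by name, as every probe set that the array annotation maps to exactly 1 of these symbols, which gave 11 of 21646 probe sets tested and 5 of 11429 genes with such a probe set: 1 probe set for Gja4, 5 for Gja1, 1 for Gjc1, 2 for Kit and 2 for Kitl. Fully grown oocytes with an intact germinal vesicle (GV) were compared with ovulated eggs resting in the second meiotic metaphase (MII), in 3 biological replicates of 300 oocytes each and 1 array per replicate. All animals were 22 to 24 days old and had received 5 IU of equine chorionic gonadotropin, and the labels give no strain. GV oocytes came from large antral follicles 44 to 46 h later, were stripped of cumulus cells with a narrow glass pipette and were held in 5 µM milrinone, an inhibitor of the oocyte's phosphodiesterase that keeps meiosis from resuming. The labels name a shared collection medium for both stages and leave unclear whether MII oocytes also met milrinone. MII oocytes came from oviducts 14 h after a further 5 IU of human chorionic gonadotropin, the hormone that sets off ovulation. They had a visible polar body and were freed of cumulus cells with hyaluronidase at 1 mg/ml for 3 to 5 min. Stage therefore cannot be told apart from this hormone, the site of collection or the method of cumulus removal.

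Gap junction channels are built from connexins, and each of the facing cells contributes its own ring of subunits. In the mouse follicle Cx37, the product of Gja4, is the connexin of the channels between the oocyte and the cumulus cells, whose projections cross the zona pellucida to reach the oocyte. Cx43, the product of Gja1, mainly couples granulosa and cumulus cells to each other, and Cx45, the product of Gjc1, is known from tissues such as heart and vessel wall. Metabolites and cyclic nucleotides pass through these channels, and the coupling is lost around ovulation. Kit is a receptor tyrosine kinase on the oocyte surface, its ligand Kitl is made by granulosa cells, and their signalling through phosphatidylinositol 3-kinase supports oocyte growth.

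The values were log2 expression values as deposited, and 3 arrays per stage limit the precision of each difference. Array medians were 6.10 to 6.12 at the GV and 5.47 to 5.49 at the MII stage, and every array spanned 1.85 to 13.30. Hybridization controls averaged 9.82 on the array of GV replicate 1 against 8.97 and 8.94 on the other GV arrays, and 9.42 to 9.86 on the MII arrays. The arrays carried the markers of their labelled cell type: of 17 measured oocyte markers 15 were above the array median on all 6 arrays. Of 12 measured granulosa and cumulus markers 8 were below it on all 6 arrays and 2 above, and all 5 measured cumulus expansion genes, Has2, Ptgs2, Ptx3, Btc and Vcan, lay between 2.15 and 3.65. The 2 theca and stroma, 3 oviduct and 4 leukocyte and endothelial markers measured were all below the array median, and none of their values exceeded 5.47. Many listed markers were not measured: the lists held 20 oocyte, 21 granulosa and cumulus and 11 cumulus expansion genes. For theca and stroma, oviduct, and leukocyte and endothelial cells they held 8, 6 and 9.

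Among the 5 genes as deposited, the connexin genes Gja4, Gja1 and Gjc1 were called and Kit and Kitl were not. The calls of Gjc1 and Kitl changed with the scale chosen between arrays, as given below. Transcripts of Gja4 and Gja1 were lower at the MII stage, those of Gjc1 were modestly higher, and for Kit and Kitl the stages overlapped in every probe set. By probe set, limma called 6 of 11 lower and 1 higher in MII at a Benjamini-Hochberg adjusted p under 0.05, where it called 34.1% of all probe sets lower and 10.9% higher. Of the 6 lower probe sets, 5 belong to Gja1 alone. The MII arrays were all below the GV arrays for the same 6 probe sets, against 39.4% of all probe sets. They were all above the GV arrays for the same 1, against 14.6% of all probe sets. By gene, 2 of 5 were lower and 1 was higher, beside 37.8% and 10.5% of all genes, each gene being represented by its probe set with the highest mean.

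**Figure D1:**
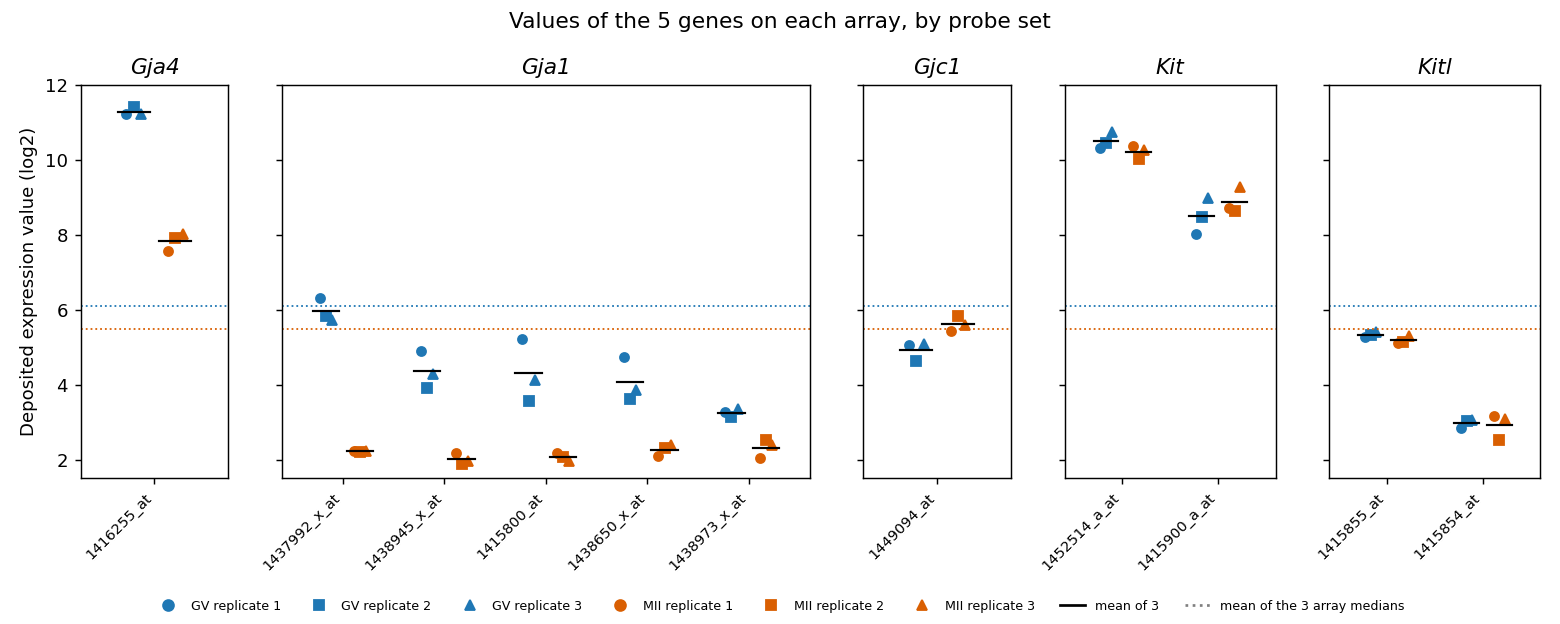
Deposited log2 values (vertical axis) of the 11 probe sets (horizontal axis) of Gja4, Gja1, Gjc1, Kit and Kitl on each array, with GV in blue, MII in orange, a symbol per replicate, a black line for the mean of 3 and dotted lines for the mean of the 3 array medians of each stage. Gja4 falls from 11.29 to 7.83 while staying above the array medians, all Gja1 values in MII lie between 1.88 and 2.52, and the stages overlap for both probe sets of Kit and of Kitl.

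Gja4, the gene of the oocyte connexin, had a strong signal in GV oocytes and fell steeply. Its values (probe set 1416255_at) were 11.21, 11.42 and 11.23 in the GV replicates and 7.57, 7.91 and 8.01 in the MII replicates. The stages were separated by more than 3 log2 units, and the value was above the array median on all 6 arrays. The mean went from 11.29 ± 0.11 to 7.83 ± 0.23 (SD, n = 3), a fall by 3.46 ± 0.16 on the log2 scale (SE), or 10.99-fold, at a Benjamini-Hochberg adjusted p of 8.3e-08 by limma. Of all 21646 probe sets, 436 (this one included) had a fall of this size or larger. The call held in all scalings of the arrays that were tried, at -2.83 to -4.33.

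Gja1, the gene of the connexin of cumulus and granulosa cells, was lower in MII in all 5 of its probe sets, from weak signals at the GV stage to values near the bottom of the arrays' range. The brightest (1437992_x_at) had GV values of 6.32, 5.84 and 5.74 and MII values of 2.22, 2.21 and 2.24. It exceeded the array median on 1 array, that of GV replicate 1. Its mean fell by 3.74 ± 0.17 (SE, log2), from 5.97 ± 0.31 to 2.22 ± 0.01 (SD, n = 3), at an adjusted p of 8.1e-08 (limma, Benjamini-Hochberg). The probe set 1415800_at, the only one of the 5 not of a type that may also match other sequences (_x_at), read 5.23, 3.55 and 4.12 in GV and 2.16, 2.06 and 1.96 in MII. Its fall was 2.24 ± 0.34 (SE), at an adjusted p of 0.00037 (limma, Benjamini-Hochberg). GV replicate 1 stood above the other GV arrays here, and without GV replicate 1 the difference was still called, at -1.77.

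The remaining Gja1 probe sets differed in size but not in direction. The probe set 1438945_x_at gave a log2 difference of -2.36 ± 0.23, 1438650_x_at of -1.79 ± 0.26 and 1438973_x_at of -0.93 ± 0.16 (SE), with adjusted p of 1.4e-05 to 0.00082 by limma. All 4 of the dimmer Gja1 probe sets were below the array median on every array at both stages, so that no fold is given for them, and that of the brightest would rest on an MII value near the arrays' minimum of 1.85. The weakest of them, 1438973_x_at, read 3.26, 3.13 and 3.34 in GV and 2.04, 2.52 and 2.38 in MII, and with array medians made equal its call was lost, at -0.31.

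Of 12 measured granulosa and cumulus markers, 7 were lower and 0 higher in MII by limma (0 higher also at an unadjusted p under 0.05 and without moderation of the variance), with a median difference of -0.48 beside -0.20 and 37.8% lower for all genes, and 5 were not called. Oocyte markers were lower in 9 of 17 and higher in 3, with a median difference of -1.01, and 1 of 3 oviduct markers (Krt8, -0.83) and 1 of 4 leukocyte and endothelial markers (Tek, -1.17) were lower. The values of the granulosa and cumulus markers spanned 2.67 to 7.92, and their summed level (log2) was 9.15 to 9.29 in GV and 8.46 to 8.73 in MII. With array medians made equal 2 were called lower and 3 higher, with a median of 0.14, and after quantile normalization 2 and 1. Within the GV stage Gja1 was highest in replicate 1 for 4 of its 5 probe sets, where the summed markers were 9.29, 9.28 and 9.15 in replicates 1, 2 and 3. The part of remaining cumulus cells in the Gja1 difference was not tested, and fewer cells of a type and less RNA per cell cannot be told apart in these pooled samples.

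Gjc1, the gene of the connexin Cx45, was the only one of the 5 genes that was higher in MII as deposited. Its values (1449094_at) were 5.05, 4.63 and 5.08 in GV and 5.43, 5.83 and 5.58 in MII. The stages did not overlap, although they were separated by less than the range within GV, and the signal was weak, below the array median on all 3 GV arrays and above it on 2 of 3 MII arrays. The mean rose by 0.69 ± 0.17 (SE, log2), from 4.92 ± 0.25 to 5.61 ± 0.20 (SD, n = 3), at an adjusted p of 0.0082 (limma, Benjamini-Hochberg). The call ended with hybridization controls made equal (0.29) and without moderation of the variance (0.69, adjusted p = 0.057), and the sign turned with poly-A controls made equal (-0.18, not called).

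Kit, the receptor gene, kept a strong signal at both stages, with overlapping values. The brighter probe set (1452514_a_at) read 10.31, 10.46 and 10.74 in GV and 10.37, 10.03 and 10.26 in MII. The MII array of replicate 1 was above the lowest GV array. The difference was -0.28 ± 0.16 (SE, log2), with a 95% interval of -0.65 to 0.08 and an adjusted p of 0.19 (limma, Benjamini-Hochberg). The dimmer probe set (1415900_a_at) read 8.02, 8.49 and 8.99 in GV and 8.70, 8.64 and 9.28 in MII, again overlapping. Its difference had the opposite sign, 0.38 ± 0.25 (SE), with an interval of -0.19 to 0.95 and an adjusted p of 0.26 (limma, Benjamini-Hochberg). Both probe sets are of the type that matches several transcripts of a gene (_a_at).

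Within each array the dimmer Kit probe set relative to the brighter one was at -2.29, -1.98 and -1.76 in GV and at -1.67, -1.39 and -0.97 in MII. The gap was smaller on every MII array, by 0.66 ± 0.26 (SE), which an exact permutation test over samples put at p = 0.1, two-sided, the smallest value that 3 against 3 arrays allow. This comparison was chosen after the values were seen.

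Kitl, the ligand gene, had weak signals at both stages. The brighter probe set (1415855_at) read 5.27, 5.32 and 5.41 in GV and 5.10, 5.13 and 5.30 in MII. All 6 values were below the median of their array, and the highest MII value lay within the GV range. The difference was -0.15 ± 0.13 (SE, log2), with a 95% interval of -0.45 to 0.14 and an adjusted p of 0.39 (limma, Benjamini-Hochberg). The other probe set (1415854_at) read 2.85, 3.02 and 3.07 in GV and 3.15, 2.51 and 3.08 in MII, a difference of -0.06 ± 0.19 (SE; interval -0.47 to 0.35). Neither probe set was called.

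**Figure D2:**
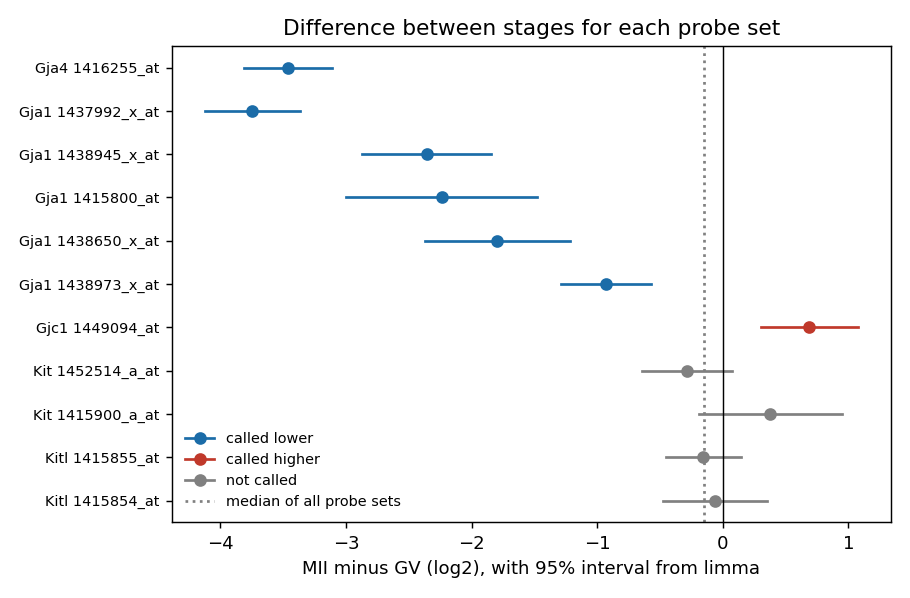
MII minus GV difference (horizontal axis, log2) for each of the 11 probe sets (vertical axis), with the 95% interval from limma, the median of all probe sets (-0.15) as a dotted line, and colour for the call. The 5 Gja1 probe sets run from -3.74 to -0.93, and the intervals of all Kit and Kitl probe sets include 0.

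Differences between genes within an array do not depend on a constant shift of the whole array, though quantile normalization can change them, and 3 such comparisons were made between brightest probe sets. Gja4 stood 4.89, 5.57 and 5.50 above Gja1 in GV and 5.34, 5.70 and 5.78 in MII, a change of 0.29 ± 0.25 (SE; exact permutation p = 0.4). As the Gja1 values in MII lay near the minimum of the arrays, the fall of Gja1 has only a lower bound, and the sizes of both falls cannot be compared. Kit stood 5.05, 5.14 and 5.33 above Kitl in GV and 5.27, 4.90 and 4.95 in MII, a change of -0.13 ± 0.14 (SE; exact permutation p = 0.4), and 0.15 when probe sets were averaged. Gja4 stood 6.16, 6.78 and 6.16 above Gjc1 in GV and 2.14, 2.08 and 2.43 in MII, a change of -4.15 ± 0.24 (SE; exact permutation p = 0.1). The smallest p these two-sided tests allow is 0.1, so none could pass 0.05, and adjusted over the 3 comparisons by Benjamini-Hochberg the p was 0.3 for Gja4 against Gjc1 and 0.4 for the others.

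The scale between arrays decided the calls for 3 of the 5 genes. Array medians differed between stages, and making them equal moved all differences up by 0.62. On that scale Kit stood at 0.34 (not called), Kitl at 0.47 and Gjc1 at 1.31 (both called higher), and the dimmer Kit probe set was called higher, at 1.00. After quantile normalization Kit was at 0.03, Kitl at 0.39 and called higher, and Gjc1 at 1.23. With poly-A controls made equal, which moved the median difference by -0.87, Kit at -1.16 and Kitl at -1.03 were called lower. The poly-A controls averaged 4.28 to 4.71 on the GV arrays and 5.14 to 5.43 on the MII arrays, each time below the median of the array. For the brightest Kit probe set this was the only scale with a call. Gja4 and Gja1 were called lower on all of these scales.

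**Figure D3:**
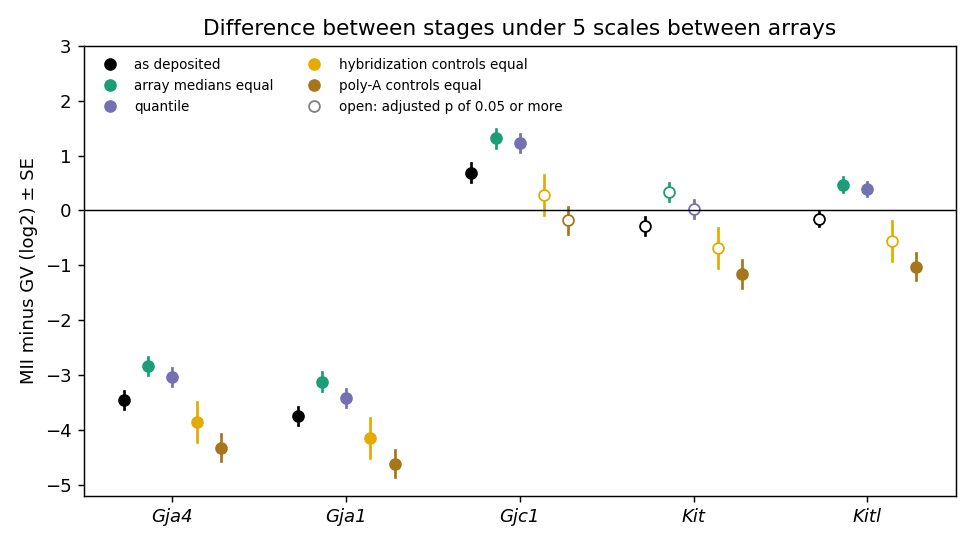
MII minus GV difference (vertical axis, log2, ± SE) of the brightest probe set of each gene (horizontal axis) as deposited and under 4 other scales between arrays, with open symbols for an adjusted p of 0.05 or more. Gja4 and Gja1 stay at or below -2.83 on every scale, whereas Kit, Kitl and Gjc1 lie on both sides of 0.

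Other connexin and pannexin genes were few in the data, with 9 of 23 listed genes measured, Gja4, Gja1 and Gjc1 included. Of the 9, 4 fell, 1 rose and 4 were not called, with a median difference of 0.02 beside -0.20 for all genes, of which 37.8% were lower and 10.5% higher. Panx1, which forms channels that release ATP, read 7.36, 7.61 and 7.31 in GV and 4.68, 5.08 and 5.23 in MII. It fell by 2.43 ± 0.17 (SE, log2), at an adjusted p of 1.5e-06 (limma, Benjamini-Hochberg). Gja3, a connexin gene known from the lens, was at -1.25 ± 0.22 (adjusted p 0.0011 by limma), from a GV mean of 4.58. The genes not called were Gjb1, Gjb2, Gjb6 and Panx3, at 0.20, 0.19, 0.02 and 0.21. The 4 falls were called on every scale tried, while the number of rises was 5 where array medians were equalised, 3 after quantile normalization, and by limma 0 on either control-based scale, 0 there also at an unadjusted p under 0.05.

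Of 21 genes whose products bind, phosphorylate or turn over connexins, 13 were measured: 4 fell, 2 rose and 7 were not called, with a median difference of 0.01, beside 37.8% and 10.5% of all genes lower and higher. Cdk1, the mitotic kinase that also phosphorylates Cx43, was at -1.53 ± 0.15, Tjp1, the scaffold protein ZO-1, at -1.33 ± 0.13, and the protein kinase C gene Prkcd at -1.27 ± 0.19 (SE). Akt1 rose by 0.81 ± 0.20 in this probe set and by 0.55 in another, and the ubiquitin ligase gene Wwp1 rose by 0.71 ± 0.15, although another Wwp1 probe set was called lower, at -1.16. The other probe set of Prkcd was at -0.08 and not called. Adjusted p for these 5 genes ranged from 1.8e-05 to 0.0073 (limma, Benjamini-Hochberg), and the call of Akt1 ended without moderation of the variance (adjusted p = 0.071). Csnk1d was not called in its brightest probe set, while others of its probe sets, at -1.34 and -1.01, were called lower.

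Of 54 genes of Kit signalling, 40 were measured, Kit and Kitl included: 11 fell, 6 rose and 23 were not called, with a median difference of -0.02 (all genes -0.20, with 37.8% lower and 10.5% higher). Some genes not called in their brightest probe set had others with steep called differences, chosen here after their values were seen: Pik3ca at -3.40 and -3.41, Pik3r1 at -3.32, 0.70 and 0.39, and Foxo1 at -2.13 and 1.08. Among the genes counted as called, some had another probe set called in the opposite direction. Akt2, counted as a rise, had one at -0.47, and Cdkn1b and Sh2b3, counted as falls, had one at 1.02 and at 0.69. Plcg1, a phospholipase recruited by receptor tyrosine kinases, read 8.24, 7.56 and 7.36 in GV and 4.53, 4.56 and 4.45 in MII, a difference of -3.21 ± 0.21 (SE), although its other, dimmer probe set was at -0.02 and not called. Grb2, the adaptor that links receptors to Ras, read 7.73, 8.20 and 8.20 in GV and 4.89, 4.79 and 4.88 in MII, a difference of -3.19 ± 0.16, although its other probe set, at -0.32, was not called. For both genes the MII values were below the array medians. Gab2, a docking protein for phosphatidylinositol 3-kinase, was at -1.77 ± 0.16, and its other probe sets were at -0.97 and -0.54, both called lower. Adjusted p of Plcg1, Grb2 and Gab2 in their brightest probe sets was 1.6e-07 to 8.7e-06 (limma, Benjamini-Hochberg).

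The rises counted in the Kit signalling list, by brightest probe set, were smaller than 1 log2 unit. Akt1, a kinase downstream of phosphatidylinositol 3-kinase, read 9.85, 9.26 and 9.16 in GV and 10.17, 10.43 and 10.09 in MII. Ptpn11, the phosphatase SHP2 that relays Kit signals, rose by 0.60 ± 0.15, and Socs6, an inhibitor of Kit signalling, by 0.66 ± 0.21 (SE), with adjusted p of 0.0085 and 0.024 (limma, Benjamini-Hochberg). The other probe set of Ptpn11, at 0.34, and that of Socs6, at 0.38, were not called. The call of Socs6 ended without GV replicate 1 (0.55), GV replicate 3 (0.68) or MII replicate 3 (0.45). The number of rises in the list was 3 without GV replicate 1 and 2 without MII replicate 3. Without moderation of the variance it was 2 (7 at an unadjusted p under 0.05), and the calls of Akt1 and Socs6 ended. On other scales the split of falls and rises was 5 and 26 on equal medians, 6 and 23 on equal quantiles, 9 and 0 with hybridization controls made equal, and 31 and 0 with poly-A controls made equal.

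Of 20 genes for adhesion between oocyte and granulosa cells and for the projections through the zona, 18 were measured: 4 fell, 1 rose and 13 were not called, with a median difference of -0.13, beside 37.8% of all genes lower and 10.5% higher. Focad, a focal adhesion protein, was at -2.82 ± 0.15, Cd9, the egg surface tetraspanin, at -2.45 ± 0.20, and Vcl, vinculin, at -0.55 ± 0.15 (SE), where another Vcl probe set was at 0.07 and not called. Tln1, talin, rose by 0.60 ± 0.16 in its brightest probe set by mean over the arrays, while its other probe set fell by 3.96 and was called lower. The adjusted p of Focad, Cd9, Vcl and Tln1 in their brightest probe sets was 2e-07 to 0.014 (limma, Benjamini-Hochberg). The rises numbered 2 without GV replicate 1 or MII replicate 3, and by limma 0 without moderation of the variance (1 at an unadjusted p under 0.05), which ended the call of Tln1. The split of falls and rises for adhesion genes was 2 and 11 on the scale of equal medians, 2 and 6 on the quantile scale, 4 and 0 with hybridization controls and 16 and 0 with poly-A controls made equal, and in the same order it was 4 and 8, 4 and 5, 4 and 0, and 11 and 0 for the connexin binding genes. Over all genes these scales called 22.5% lower and 52.2% higher, 24.5% and 34.5%, 36.7% and 0.437%, and 86.5% and 0.271%.

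**Figure D4:**
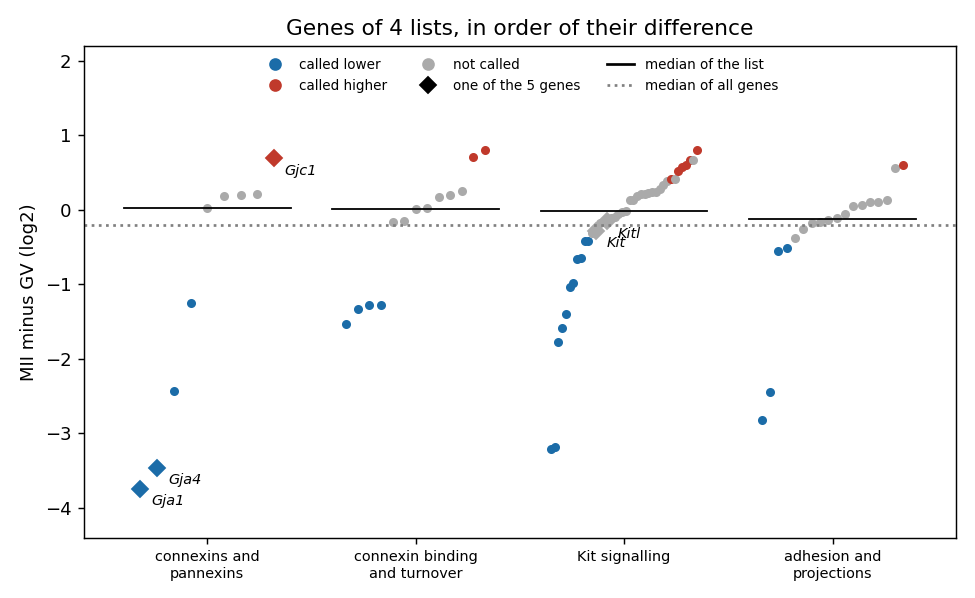
MII minus GV difference (vertical axis, log2) of each measured gene in 4 lists (horizontal axis), in order of the difference, with diamonds for the 5 genes described here, a black line for the median of each list, a dotted line for the median of all genes (-0.20), and colour for the call. Gja1 and Gja4 are the lowest of the 9 connexin and pannexin genes, and Kit and Kitl lie among the genes not called in the Kit signalling list.

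The profiles most like that of Gja4 over the 6 arrays were sought among 10013 probe sets with 1 symbol and a mean above the median, each centred on its own mean. The 5 closest genes were D6Wsu163e, Myrip, which links Rab27 to myosin, the homeobox gene Gbx2, the proteasome gene Psmd6 and the ribosomal protein gene Rpl27, at root mean square differences of 0.06 to 0.08 (log2). Their differences between stages ran from -3.54 for Psmd6 to -3.39 for Rpl27, and all were called lower. The 5 genes closest to Kit were Rpe, an enzyme of the pentose phosphate pathway, the mitochondrial ribonuclease gene Pnpt1, the actin regulator gene Abi1, the deubiquitinase gene Usp33, and Ubfd1, at 0.05 to 0.07. None of these 5 was called, with differences of -0.38 for Ubfd1 to -0.23 for Pnpt1, except that Ubfd1 was called lower without GV replicate 1 (-0.50). As the genes near Gja4 and near Kit were picked on the same 6 arrays, their differences and calls largely follow from that choice.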

How the data were processed

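Per the labels' protocols, total RNA of 300 oocytes was extracted for each of the 6 samples, and 10 ng was amplified over repeated cDNA rounds with a mixed primer set and hybridised to 1 array. The deposited values are on the log2 scale; the submitters' processing notes name RMA and affy, while settings, filters and genome build were not stated in what was used here. The 7077 distinct values were shared by all arrays. No step was added to the deposited log2 values. The table had 21702 features; 56 were array controls, and the other 21646 probe sets were tested without an intensity filter.

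Stages were compared by lmFit and eBayes of limma 3.58.1 under R 4.3.3, two-sided, with Benjamini-Hochberg adjustment over all 21646 probe sets and a threshold of 0.05. The fit was tested on simulated data with known changes. These data held no shift of whole arrays, so the test does not bear on the scale between arrays. Alternatives were 4 other scales between arrays, no moderation, a mean-variance trend, a filter on low means, a replicate block and leaving out each array. Gene symbols follow the array annotation, and genes of a list without a probe set of 1 symbol were not analysed here. The members and lists, compiled from general knowledge, were chosen with earlier results of these data known. By rule, all probe sets of the 5 genes, the 3 largest called rises and falls of 4 lists, and the 5 profiles closest to Gja4 and to Kit were named, and the measured cumulus expansion genes were named as markers. Probe and protein sequences were not used here.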

Additional observations from a re-analysis of the deposited data

How the results depend on the processing

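Gja4 and Gja1 were called lower in every alternative that included them. The number of the 11 probe sets called lower was 5 to 9 in the alternatives on all probe sets, and 1 with only probe sets above the median, which keeps Gja4 and Kit but not Gja1, Gjc1 or Kitl. The number called higher was 4 with array medians made equal, 3 with equal quantiles, and by limma 0 on either control-based scale or with only probe sets above the median (0 also at an unadjusted p under 0.05), and 0 without moderation (Gjc1 at 0.69; 1 at an unadjusted p under 0.05). With equal medians and with quantile normalization, in that order, values above 0 were 0.34 and 0.027 for Kit, 0.47 and 0.39 for Kitl, 0.56 and 0.063 for its dimmer probe set, 0.073 and 0.10 for Vcl, 0.33 and 0.0077 for Rpe, 0.39 and 0.43 for Pnpt1, 0.36 and 0.29 for Abi1, and 0.38 and 0.33 for Usp33, and Ubfd1 was at 0.24 in the former. With hybridization controls made equal Gjc1 was at 0.29 and the dimmer Kit probe set at -0.027. With poly-A controls made equal Kit was at -1.16, Kitl at -1.03, Gjc1 at -0.18, the dimmer Kit probe set at -0.49, Akt1 at -0.064, Wwp1 at -0.16, Socs6 at -0.21, Ptpn11 at -0.27 and Tln1 at -0.28. With probe sets averaged per gene, Kit was at 0.047, Gja4 relative to Gja1 at -1.25 and Kit relative to Kitl at 0.15. All Gja1 probe sets lay near the minimum of the arrays in MII. Their GV means were 5.97 for the brightest and 3.24 to 4.36 for the others. No Kit probe set is of the plain _at type, so that alternative gave no Kit value. Leaving out each array moved the dimmer Kitl probe set between -0.18 and 0.14 (without MII replicate 2). The cause of these shifts was not tested.

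Sample titles carry the numbers 2 and 3 at both stages, and nothing says that they mark pairs. Deviations of same-numbered arrays correlated at 0.03 for both numbers, and at -0.22 and 0.29 across numbers. A replicate block over these 4 arrays gave -3.36 for Gja4, -3.57 for Gja1, 0.85 for Gjc1, -0.46 for Kit and -0.15 for Kitl, with no call changed among the 5 genes, and ended the calls of Tln1 (0.45) and Vcl (-0.42).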
